A study of Mus musculus with 8 samples.

Results

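The genes described here are those of the cytochrome P450, aldehyde dehydrogenase, carboxylesterase, glutathione S-transferase, UDP-glucuronosyltransferase and sulfotransferase families and of the B, C and G subfamilies of ATP-binding cassette transporters. They were chosen by symbol alone: a Cyp, Gst, Ugt, Sult, Aldh, Ces, Abcb, Abcc or Abcg symbol on a probe set annotated with 1 gene, leaving out the sterol demethylase Cyp51. The rule took in 121 of 12422 probe sets, which read 96 genes, and each gene was followed on the probe set with the highest mean over the 8 arrays. Of these 96 genes, 56 reached the level at which probe sets were tested, a mean intensity of 37.0, and 40 did not. The choice by name also takes in relatives with other work, such as the steroid hormone enzyme Cyp21a1 and the proline synthesis enzyme Aldh18a1.

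Xenobiotic metabolism is the handling of foreign compounds, such as drugs, plant products and microbial metabolites, that the gut lining meets first. Cytochromes P450, aldehyde dehydrogenases and carboxylesterases oxidise or cleave a compound, which is called phase I. Transferases then attach glutathione, glucuronic acid or sulfate, and ABC transporters pump the product out of the cell. Receptors such as Nr1i2 (the pregnane X receptor) and Ahr (the aryl hydrocarbon receptor) sense the compounds and switch on many of these genes in liver and intestine.

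Whole colon of mice supplied the RNA, which was hybridised as pools of several animals to 8 MG_U74Av2 arrays of Affymetrix. The 4 groups were C57BL/6J wild type, C57BL/6J carrying the Il10tm1Cgn allele, C3H/HeJBir wild type and C3H/HeJBir carrying the same allele. Il10tm1Cgn is a targeted null allele of interleukin 10, a cytokine that restrains inflammation, and the groups that carry it are called Il10-null. Each group had 2 pools, named sample 1 and sample 2 in the labels, with 7 µg of RNA from each of 5 animals in the C57BL/6J pools and in C3H/HeJBir Il10-null sample 1, and from each of 4 animals in the others. The sample 2 C57BL/6J wild-type pool is labelled as 4 weeks old, while age elsewhere, sex and inflammation score were not given in the sources used here. In whole tissue, fewer cells of a type and less RNA per cell cannot be told apart.

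The arrays had median intensities of 50.1 to 62.2, and their number limits the precision. The colonocyte gene Car1, a carbonic anhydrase, read 6956 to 8533, while the liver marker Alb stayed at 11.8 to 48.1 and 5 of the 7 hepatocyte markers measured lay below the tested level. Least like the other arrays was C3H/HeJBir Il10-null sample 1, at a mean Spearman correlation of 0.915, where the remaining 7 had 0.931 to 0.945. In that pool the 8 smooth muscle and 6 fibroblast markers had median log2 deviations of -0.61 and -0.63 from their means. The 7 exocrine pancreas markers had 1.74 there, beside 1.24 in C57BL/6J Il10-null sample 1. The 9 T and B cell markers, of which 5 reached the tested level, had 0.78 in C3H/HeJBir Il10-null sample 1. Not every gene of these lists rose in that pool. Cela1 (1118) and Clps (254) lay within the range of the other pools, and Cd3g (19.3) had its lowest value. The 9 neutrophil and macrophage markers had a median of 0.225 there, below the 0.29 of C3H/HeJBir wild-type sample 1, and did not move as one. Of them S100a8 read 581 against 9.53 to 35.0 elsewhere and S100a9 read 173 against 1.83 to 9.74, while Mpo (8.21) and Cd68 (27.8) had their lowest value in that pool. The arrays were hybridised on 3 days: the sample 1 Il10-null pools on the first, the sample 1 wild-type pools on the second and all sample 2 pools on the third. Strains were thus compared within a day, and genotypes only among the sample 2 pools. Xist, the RNA of the inactive X chromosome, was at 243 to 452 in sample 1 and at 2.84 to 12.9 in sample 2.

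Intensities are given in the order sample 1, sample 2. They compare pools for 1 gene and not 1 gene with another, since probe sets differ in brightness. A log2 difference is the difference of log2(intensity + 11.07) between group means, with the SE of a limma fit over all 7453 tested probe sets, and understates the change of dim genes. Its p value is adjusted by the Benjamini-Hochberg method over those probe sets, with a threshold of 0.05. It weighs the difference against the spread between pools, not between animals. Within a group that spread is the difference between sample 1 and sample 2, which also differ in day and in Xist. Any shift by sample number is therefore part of the spread, unless a fit takes in sample number or day. Every strain difference is C3H/HeJBir minus C57BL/6J, and every Il10 difference Il10-null minus wild type.

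**Figure D1:**
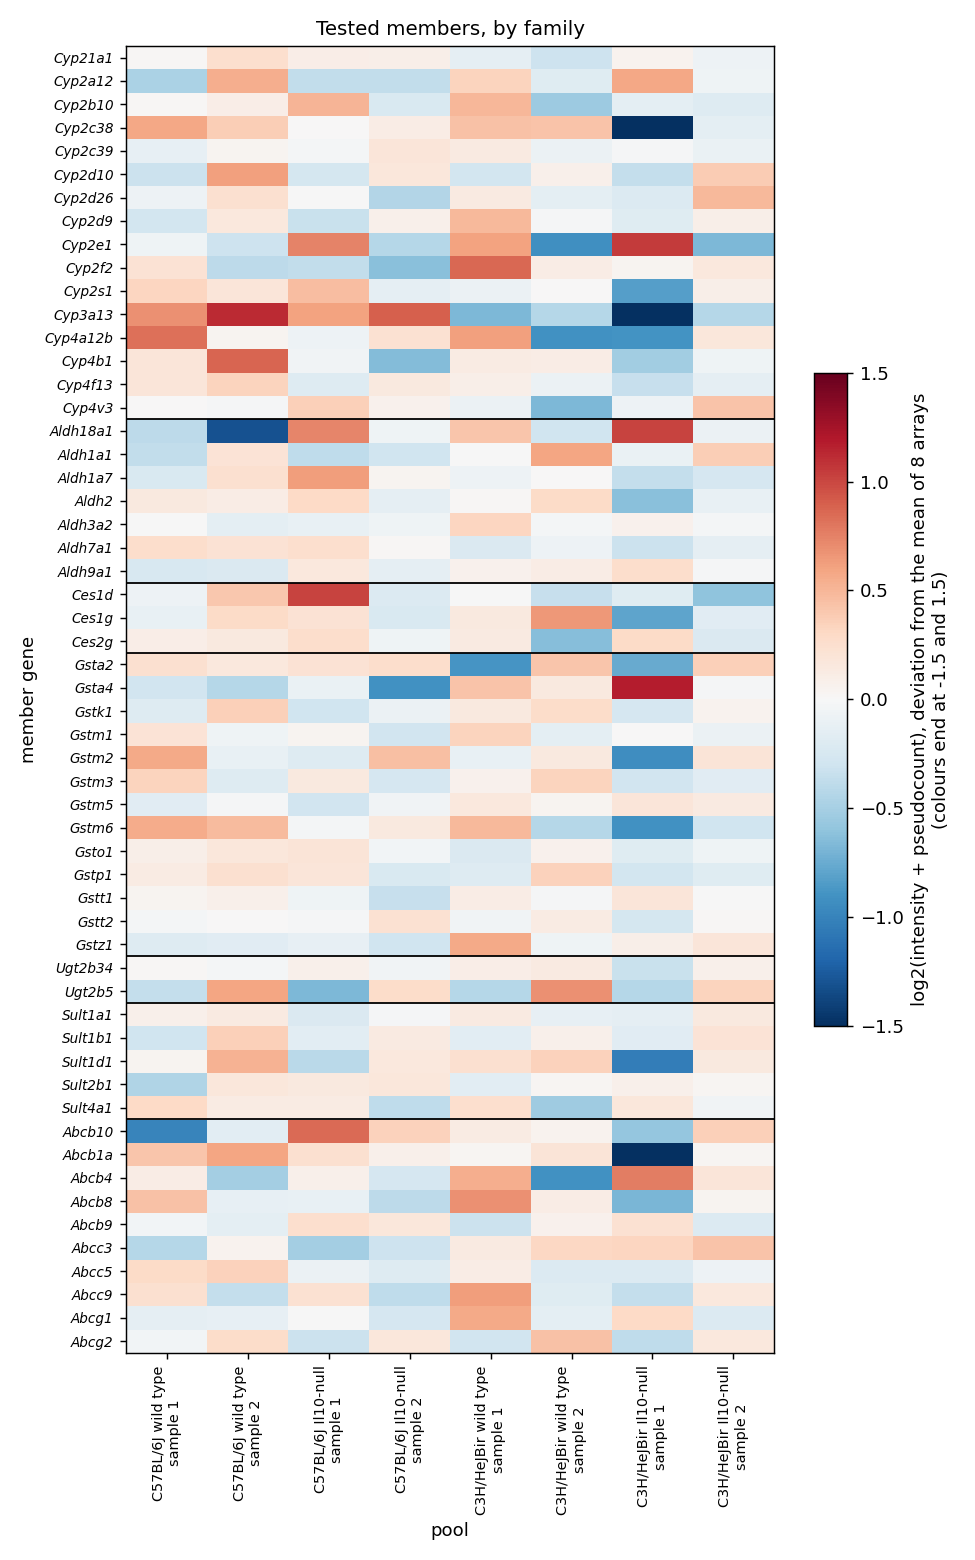
Each row is 1 of the 56 tested member genes, ordered by family, and each column 1 of the 8 pools. Colour gives the log2 deviation of the gene from its own mean over the 8 arrays, blue for lower and red for higher. Cyp3a13 is blue in the 4 C3H/HeJBir pools, and the sample 1 C3H/HeJBir Il10-null column holds the lowest value of 19 of the 56 genes.

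The families differed in how much of them the array read in colon. Above the tested level were 16 of 39 cytochromes P450, 7 of 10 aldehyde dehydrogenases, 3 of 5 carboxylesterases, 13 of 15 glutathione S-transferases, 2 of 3 UDP-glucuronosyltransferases, 5 of 9 sulfotransferases and 10 of 15 transporters. The cytochromes P450 below it included several best known from liver. Cyp3a11, a main drug-oxidising enzyme of mouse liver, had a mean of 6.79, Cyp2c29 a mean of 9.77 and Cyp7a1, the rate-limiting enzyme of bile acid synthesis, 3.87. Cyp1a1, the classical target of the aryl hydrocarbon receptor, had a mean of 11.6 and Abcb1b, a second gene for P-glycoprotein, 9.19. A low mean can come from a dim probe set as well as from little RNA. At the boundary, Aldh18a1 (38.3), Abcb4 (38.4) and Gsta2 (43.0) were just inside and Abcc1 (34.9), Gsta3 (33.2) and Aldh3a1 (32.1) just outside.

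The members with the highest mean in their family show what the pools shared. Aldh1a1, which makes retinoic acid from retinaldehyde, read 2320 to 4564, and Gstp1, the pi-class glutathione S-transferase, read 2542 to 3943. Ugt2b34, which attaches glucuronic acid, read 834 to 1160 and Sult1b1, a phenol sulfotransferase, 775 to 1227. Aldh2, which removes acetaldehyde, read 493 to 944, and the mu-class Gstm1 1924 to 2966. For Ces1d, a carboxylesterase, the pools ran from 103 to 338, with the highest value in the sample 1 C57BL/6J Il10-null pool. The median coefficient of variation over the 8 pools was 24.1% for the 56 members and 21.6% for all tested probe sets. Cyp2c39 (8.54%) and Ugt2b34 (9.68%) varied least among the members, and Aldh18a1 (61.2%) and Cyp3a13 (57.5%) most.

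Between strains, 1 of 56 members passed in the fit with all pools. Cyp3a13, a member of the Cyp3a subfamily that oxidises many drugs and steroids, read 966 and 1305 in C57BL/6J wild type and 915 and 1118 in C57BL/6J Il10-null. It read 369 and 439.7 in C3H/HeJBir wild type and 167 and 440.4 in C3H/HeJBir Il10-null. Every C3H/HeJBir pool lay below every C57BL/6J pool, and its Il10-null sample 1 was the lowest. The average strain difference was -1.65 ± 0.29 on the log2 scale (limma adjusted p = 0.0431), from 1076 ± 175 (SD, n = 4) in C57BL/6J to 354 ± 129 (SD, n = 4) in C3H/HeJBir. It was 1 call among 56 members, with 52 of 7453 probe sets (0.698%) called lower in C3H/HeJBir and 83 (1.11%) called in either direction. At an unadjusted p under 0.05 limma gave 6 members, against 8.43% of probe sets.

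Within single days, the strain difference of Cyp3a13 was -1.36 between the wild-type pools of the second day and -2.38 between the Il10-null pools of the first. On the third day it was -1.55 in wild type and -1.32 in Il10-null pools. In the limma fit for wild type alone it was -1.46 ± 0.41 (adjusted p = 0.417) and for Il10-null alone -1.85 ± 0.41 (adjusted p = 0.194), so that neither passed. Its difference between genotypes was small beside that between strains, at -0.35 ± 0.29 on average (limma adjusted p = 1.00). The call was lost without any 1 of the 6 pools other than those of C3H/HeJBir Il10-null, with limma adjusted p values up to 0.164. It was also lost with a smaller pseudocount (0.0707), without the filter on low values (0.0864) and after scaling to a common median (0.0852), all as limma adjusted p. The call held with the sample number as a block (limma adjusted p = 0.0177) or the day as a block (0.0420). Of the Y chromosome genes, Eif2s3y read 39.7 and 113 in the C57BL/6J and 318 and 242 in the C3H/HeJBir pools of sample 1, and 256 and 263 against 411 and 391 in sample 2. Uty was also higher in every C3H/HeJBir pool (43.3 to 57.1) than in any C57BL/6J pool (27.5 to 31.5), whereas Kdm5d overlapped (35.7 to 105 and 52.6 to 74.8). In the sample 2 pools Xist was low in both strains, while Eif2s3y and Uty were higher in C3H/HeJBir. The average Cyp3a13 difference in those pools was -1.43. The part of the sex of the animals in the strain differences was not tested. Probe sequences were not used here, and the part of sequence differences between the strains under the probes was not tested.

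The start of Cyp3a13 is shown as that of the member called between strains, beside Abcb1a, 1 of the 3 members with the highest correlation to it over the 8 arrays, and Ugt2b5, the member that differed most clearly by sample number. All lie on chromosome 5. The windows are those of RefSeq on assembly GRCm38.p6, the C57BL/6J reference, from 250 bases before to 50 after the transcription start, written 5′ to 3′ on the strand of the gene. Capitals mark matches, on either strand, to the 4 short motifs spelled out after the sequences.
Cyp3a13, chr5:137921570-137921869, minus strand: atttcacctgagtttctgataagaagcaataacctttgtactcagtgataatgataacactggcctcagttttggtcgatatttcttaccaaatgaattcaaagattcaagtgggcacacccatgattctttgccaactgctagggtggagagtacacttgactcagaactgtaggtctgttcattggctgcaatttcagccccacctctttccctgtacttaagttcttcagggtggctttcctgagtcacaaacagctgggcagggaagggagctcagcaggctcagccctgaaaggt
Abcb1a, chr5:8566841-8567140, plus strand: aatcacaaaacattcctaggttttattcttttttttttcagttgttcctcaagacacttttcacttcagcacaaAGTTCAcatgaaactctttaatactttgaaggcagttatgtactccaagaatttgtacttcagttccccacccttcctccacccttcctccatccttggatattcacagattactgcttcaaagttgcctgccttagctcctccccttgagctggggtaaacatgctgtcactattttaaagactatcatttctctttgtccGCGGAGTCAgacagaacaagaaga
Ugt2b5, chr5:87140291-87140590, minus strand: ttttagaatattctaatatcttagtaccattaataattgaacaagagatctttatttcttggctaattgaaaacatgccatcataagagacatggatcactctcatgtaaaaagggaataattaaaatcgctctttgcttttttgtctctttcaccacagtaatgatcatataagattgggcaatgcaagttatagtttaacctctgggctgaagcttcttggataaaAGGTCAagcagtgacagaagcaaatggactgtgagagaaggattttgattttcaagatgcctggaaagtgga

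AGGTCA is a half-site of nuclear receptors, AGTTCA one found in pregnane X receptor elements, GCGTG the core that the aryl hydrocarbon receptor binds and TGACNNNGC the core of the antioxidant response element. The Cyp3a13 window held none of these letters. The Abcb1a window held AGTTCA at bases 75 to 80 and, on the opposite strand, TGACNNNGC at bases 277 to 285. The Ugt2b5 window held AGGTCA at bases 229 to 234. Windows were found for 72 of the 96 genes, 84 in all because some genes have several starts. AGGTCA occurred in 19 of the 84 (22.6%, against 16.3% of all 32851 windows of this length) and AGTTCA in 11 (13.1%, against 14.0%). GCGTG occurred in 21 (25%, against 32.4%) and TGACNNNGC in 8 (9.52%, against 12.4%). A match describes letters in the window and not a bound site.

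For the average strain difference 34 of 56 members lay below 0 (54.1% of probe sets), with a median of -0.04, but 31 did so after quantile normalization and 27 after scaling to a common median. Other members separated the 4 pools of one strain from the 4 of the other without passing the test. There were 4 members higher in C3H/HeJBir (199 of all tested probe sets, 2.67%) and 2 lower, Cyp3a13 and Aldh7a1 (284, 3.81%). Aldh7a1, which acts in lysine breakdown, read 167 and 161 in C57BL/6J wild type and 165 and 139 in C57BL/6J Il10-null, against 117 and 129.8 in C3H/HeJBir wild type and 108 and 124 in C3H/HeJBir Il10-null. Its average strain difference was -0.37 ± 0.16 (limma adjusted p = 0.558). A second probe set of Aldh7a1 read 64.3, 72.8 and 72.9 in 3 C3H/HeJBir pools and 102 to 193 in the C57BL/6J pools, but 179.5 in C3H/HeJBir Il10-null sample 1, so its strains overlapped.

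Among the conjugating enzymes, Gsta4, which removes the lipid peroxidation product 4-hydroxynonenal, read 64.9 and 58.0 in C57BL/6J wild type and 75.7 and 38.5 in C57BL/6J Il10-null. It read 114 and 91.9 in C3H/HeJBir wild type and 200 and 80.7 in C3H/HeJBir Il10-null, where the sample 1 pool was the highest of all. The average strain difference was 0.87 ± 0.30 (limma adjusted p = 0.383), and its least separated pools read 75.7 in C57BL/6J and 80.7 in C3H/HeJBir. Gstz1, an isomerase of tyrosine breakdown, read 181 to 206 in C57BL/6J and 214 to 339 in C3H/HeJBir (0.39 ± 0.19, limma adjusted p = 0.665). Gstm5, a mu-class enzyme named after its values were seen, read 1063 to 1286 and 1339 to 1470 (limma adjusted p = 0.827). Its probe set is of a kind shared by related transcripts, and a dimmer one of the same gene, at 181 to 235, overlapped between the strains. Another, at 16.1 to 93.4, also overlapped and gave an average strain difference of 0.49, where the main one gave 0.26. One below the tested level gave -0.50.

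The transporter Abcc3, which exports glucuronides and bile salts across the basolateral membrane, read 1112 and 1561 in C57BL/6J wild type and 1051 and 1215 in C57BL/6J Il10-null. In C3H/HeJBir it read 1657 and 1866 in wild type and 1880 and 2033 in Il10-null. The strains did not overlap, with 1235 ± 228 (SD, n = 4) against 1859 ± 154 (SD, n = 4) and a log2 difference of 0.60 ± 0.18 (limma adjusted p = 0.271). The difference was positive within each day, from 0.26 between the wild-type pools of the third day to 0.83 between the Il10-null pools of the first. Cyp2f2, known for oxidising naphthalene in the airway, had a comparable average difference of 0.59 ± 0.23 (limma adjusted p = 0.484), but its C57BL/6J pools (59.5 to 116) and C3H/HeJBir pools (101 to 188) overlapped.

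**Figure D2:**
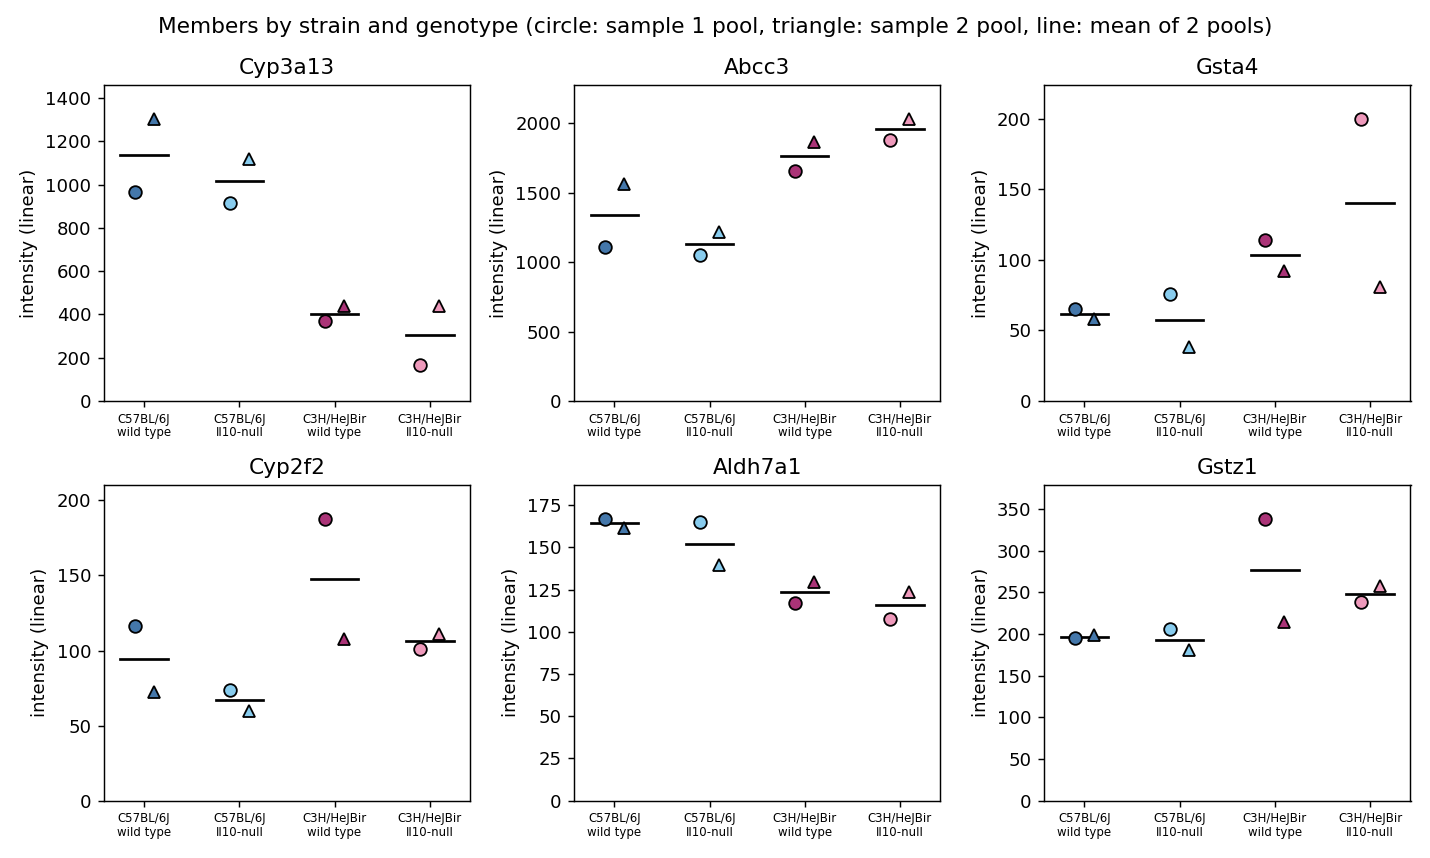
Deposited intensity on a linear axis from 0 for 6 members, by strain and genotype. Circles are sample 1 pools, triangles sample 2 pools and lines the mean of 2 pools. Cyp3a13 reads 915 to 1305 in C57BL/6J and 167 to 440.4 in C3H/HeJBir. Abcc3, Gsta4, Gstz1 and Aldh7a1 separate the strains by less, and Cyp2f2 does not.

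In wild type alone, limma called 0 of 56 members between strains, with 28 below 0 (52.8% of probe sets) and 1 at an unadjusted p under 0.05, against 30 of 7453 probe sets called (0.403%) and 423 at the unadjusted level (5.68%). The pools did not overlap for 8 members higher (14% of probe sets) and 10 lower (17%) in C3H/HeJBir. Beside those already given, the largest outside the transporters were Aldh18a1, with 0.91 ± 0.49, and Cyp4b1, with -0.41 ± 0.33. Of the transporters they were Abcb10, of the mitochondrial inner membrane, with 0.65 ± 0.39, and Abcb1a, P-glycoprotein of the apical membrane, with -0.39 ± 0.45 (limma adjusted p = 1.00 for each).

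In Il10-null pools limma also called 0 of 56 members, with 31 below 0 (53% of probe sets) and 3 at an unadjusted p under 0.05, against 22 probe sets called (0.295%) and 385 at the unadjusted level (5.17%). Pools did not overlap for 10 members higher (11.9% of probe sets) and 9 lower (15.3%). Abcb1a had a difference of -0.93 ± 0.45, but the pairs of 1 day differed: -1.82 between the sample 1 pools and -0.04 between the sample 2 pools. Cyp2c38, a Cyp2c enzyme, had -1.02 ± 0.45, with -1.78 and -0.26 in the same pairs, and Gstm6, a mu-class enzyme, -0.66 ± 0.34. On the higher side were Cyp2a12 with 0.62 ± 0.38 and Gsta4 with 1.09 ± 0.42, and none of these 5 passed (limma adjusted p = 0.829 to 1.00). Without the sample 2 C3H/HeJBir Il10-null pool, the differences were -2.52 for Cyp3a13 and -1.83 for Cyp2c38. Each rested on the single pool that remained in its group, the array least like the others.

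Over the 8 arrays, the members whose pattern was most like that of Cyp3a13 were Aldh7a1 (Pearson r = 0.899), Abcb1a (0.829) and Cyp2s1 (0.765), a cytochrome P450 of epithelia. After the strain means were removed, r was 0.504, 0.936 and 0.699. Sult1d1, a sulfotransferase, had the highest r by that measure, at 0.950. The arrays share strain, day and pool, and C3H/HeJBir Il10-null sample 1 was the lowest of the 8 for Cyp3a13, Abcb1a, Cyp2s1 and Sult1d1 alike.

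Loss of Il10 gave no member that passed. In C57BL/6J limma called 0 of 56 members and 0 of 7453 probe sets (0%), and 3 members had an unadjusted p under 0.05, against 118 probe sets (1.58%). The log2 difference was below 0 for 40 of 56 members (71.4%), against 51.1% of all tested probe sets, with medians of -0.10 and -0.01. The pools did not overlap for 5 members higher (8.93%, against 12.6% of probe sets) and 8 lower (14.3%, against 13.6%). In the sample 2 pools of 1 day the members' median was -0.21 with 43 of 56 below 0, and in the sample 1 pools of different days it was -0.01 with 29 below 0. Of all tested probe sets 50.1% lay below 0 in sample 2 and 51.0% in sample 1. The wild-type pool of the sample 2 pair is the one labelled 4 weeks old, and it held the highest value of 10 members (17.9%, against 9.89% of probe sets). From that pool to its Il10-null partner the median deviation went from 0.295 to -0.33 for the fibroblast, from 0.12 to -0.22 for the smooth muscle and from 0.21 to -0.40 for the adipocyte markers. The part of age and of these markers in the members' values was not tested.

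Among the cytochromes P450 and aldehyde dehydrogenases of C57BL/6J, Cyp4b1, which oxidises fatty acids and some toxins, read 313 and 509 in wild type and 264 and 169.7 in Il10-null pools. These did not overlap, but the sample 2 pair supplied most of the difference, with -1.52 against -0.23 in the sample 1 pair (-0.88 ± 0.33, limma adjusted p = 1.00). Cyp2c38 read 151 and 129 in wild type and 97.1 and 105 in Il10-null pools, a difference of -0.42 ± 0.45 that turned to 0.0661 with the day as a block. Aldh18a1, the proline synthesis enzyme, was close to the tested level and read 22.9 and 6.83 in wild type and 62.5 and 31.4 in Il10-null (1.18 ± 0.49). Aldh9a1, an enzyme of carnitine synthesis, read 76.9 and 78.3 in wild type and 104 and 83.5 in Il10-null (0.24 ± 0.23).

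Of the conjugating enzymes, Gstm6 read 86.5 and 81.6 in C57BL/6J wild type and 54.3 and 62.6 in Il10-null pools (-0.46 ± 0.34). Of the transporters, Abcc5, an exporter of cyclic nucleotides, read 199.6 and 208 in wild type and 152 and 139.9 in Il10-null, without overlap (-0.45 ± 0.23). Abcb10 read 17.1 and 39.1 in wild type and 89.8 and 59.95 in Il10-null (1.17 ± 0.39) and Abcb9, a peptide transporter of lysosomes, 73.9 and 67.4 in wild type and 92.4 and 87.1 in Il10-null (0.30 ± 0.25). Both were higher in each Il10-null pool, and Abcb10 differed by 1.84 in sample 1 and 0.50 in sample 2. None passed (limma adjusted p = 1.00 for each).

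In C3H/HeJBir, limma called 0 of 56 members for the Il10 difference, against 1 of 7453 probe sets (0.0134%), and 2 members had an unadjusted p under 0.05, against 211 probe sets (2.83%). The difference was below 0 for 37 of 56 members (66.1%), against 51.5% of probe sets, with medians of -0.15 and -0.01. Pools did not overlap for 4 members higher (11.3% of probe sets) and 12 lower (12%), the latter being 21.4% of the members. Here the sample 1 pools carried the shift: the members' median was -0.26 with 39 of 56 below 0 in sample 1, and 0.00 with 27 below 0 in sample 2. The all-probe medians were -0.04 and 0.02. Of the 56 members, 19 (33.9%) had their lowest value in C3H/HeJBir Il10-null sample 1, against 20.8% of all tested probe sets. Without that pool the members' median difference was -0.07. The part of the marker lists that stood apart in that pool in these values was not tested.

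Cyp2c38 had the lowest Il10 difference of any tested member in C3H/HeJBir, reading 135 and 134 in wild type and 20.5 and 86.2 in Il10-null pools (-1.39 ± 0.45). Both Il10-null pools lay below both wild-type pools, and the sample 1 pool far below its partner. Its probe set is of a kind shared by a gene family, so related Cyp2c transcripts may contribute. Ces1g, a carboxylesterase that cleaves ester drugs and lipids, read 123 and 180.1 in wild type and 59.2 and 97.3 in Il10-null pools (-0.88 ± 0.32). Here the pairs were alike, with -0.93 in sample 1 and -0.82 in sample 2. In C57BL/6J the Ces1g pools overlapped, at 102 and 138 in wild type and 130.3 and 92.4 in Il10-null.

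Sult1d1, a sulfotransferase of small phenols and catecholamines, read 432 and 463 in C3H/HeJBir wild type and 171 and 402 in Il10-null pools (-0.74 ± 0.40). Abcb1a read 1282 and 1440 in wild type and 411 and 1278 in Il10-null (-0.89 ± 0.45). For both, the sample 1 Il10-null pool was far below all others, and the sample 2 pairs differed by -0.20 for Sult1d1 and -0.17 for Abcb1a. In C57BL/6J Abcb1a read 1672 and 1901 in wild type and 1481 and 1318 in Il10-null, so that in both strains each Il10-null pool lay below the wild-type pools of its strain. In C3H/HeJBir this was nearly a tie, with 1278 in Il10-null sample 2 and 1282 in wild-type sample 1. On the higher side in C3H/HeJBir were Cyp4v3, a fatty acid hydroxylase, with 0.56 ± 0.29, Cyp21a1 with 0.21 ± 0.22, Abcc3 with 0.15 ± 0.25 and Sult2b1, a cholesterol sulfotransferase, with 0.12 ± 0.26. Limma gave an adjusted p of 1.00 for each named member of this comparison.

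**Figure D3:**
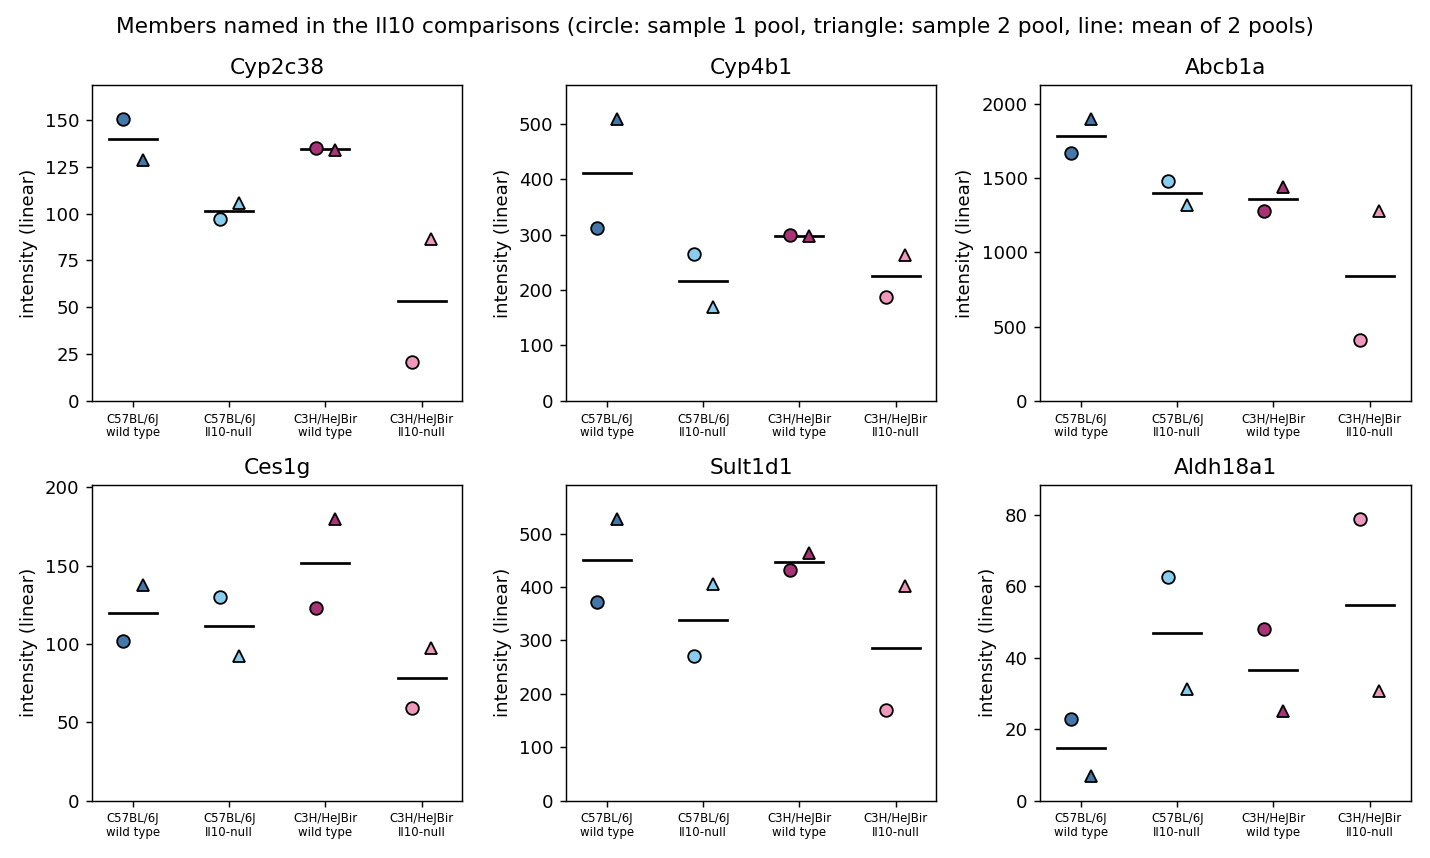
Deposited intensity on a linear axis from 0 for 6 members named in the Il10 comparisons, by strain and genotype. Circles are sample 1 pools, triangles sample 2 pools and lines the mean of 2 pools. C3H/HeJBir Il10-null sample 1 is the lowest of the 8 for Cyp2c38 (20.5), Abcb1a (411), Ces1g (59.2) and Sult1d1 (171), and is the highest for Aldh18a1 (79.0).

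Across both strains, the Il10 difference was below 0 in both for 29 of 56 members (51.8%), against 28.4% of all tested probe sets, and above 0 in both for 8 (14.3%, against 25.8%). The average Il10 difference had a median of -0.10 over the members, and 40 of 56 lay below 0, against 52.6% of probe sets. After quantile normalization 41 lay below 0, and after scaling to a common median 40. Leaving out single pools moved that median between -0.05 and -0.16, and each of 18 alternatives kept it below 0. Limma called 0 members and 0 probe sets (0%) for the average, and 4 members had an unadjusted p under 0.05 (3.09% of probe sets). By family the median was -0.14 for 16 cytochromes P450, -0.11 for 13 glutathione S-transferases, -0.13 for 10 transporters, -0.07 for 5 sulfotransferases and -0.07 for 7 aldehyde dehydrogenases. It was -0.18 for the 2 glucuronosyltransferases and 0.01 for the 3 carboxylesterases. Among the glutathione S-transferases 11 of 13 lay below 0. These are descriptions without a test of the lists, and members that share a probe set type or a target are not independent.

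Only 2 of 56 members had all 4 Il10-null pools below all 4 wild-type pools (3.57%, against 0.845% of probe sets), and 0 had them above (against 1.05%). These were Cyp2c38, with an average difference of -0.91 ± 0.32, and Cyp4b1, with -0.64 ± 0.23 (limma adjusted p = 1.00 for both). The Cyp2c38 wild-type pools read 129 to 151 and the Il10-null pools 20.5 to 105. The Cyp4b1 wild-type pools read 297 to 509 and the Il10-null pools 170 to 264. For Cyp4b1 the sample 1 wild-type and Il10-null pools came from different days, and in the sample 2 pools of 1 day the differences were -1.52 in C57BL/6J and -0.17 in C3H/HeJBir.

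**Figure D4:**
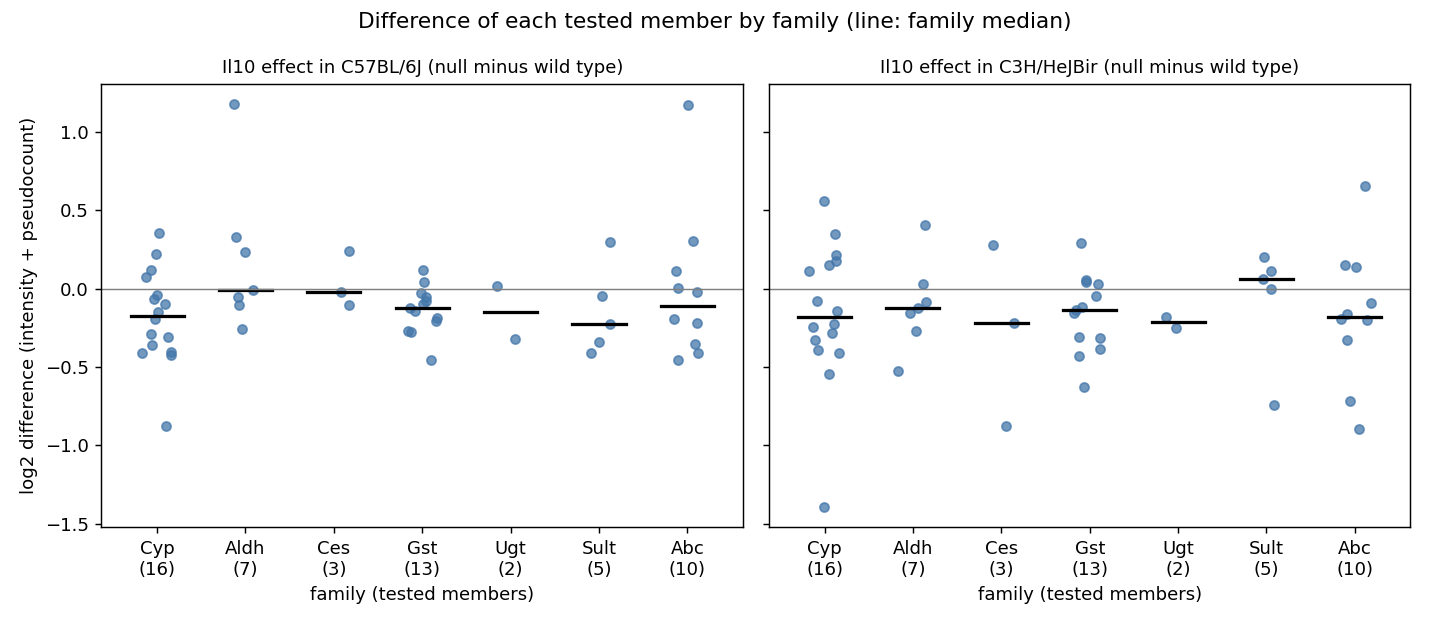
Each point is 1 tested member gene, placed by family, with the log2 difference on the vertical axis and a line at the family median. The panels show the Il10 difference in C57BL/6J and in C3H/HeJBir. All but 3 points lie within 1 log2 unit of 0. The exceptions are Aldh18a1 (1.18) and Abcb10 (1.17) in C57BL/6J and Cyp2c38 (-1.39) in C3H/HeJBir.

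Whether the Il10 effect differed by strain was tested directly. Limma called 0 of 56 members and 0 probe sets (0%), with 1 member at an unadjusted p under 0.05, against 112 probe sets (1.5%), and 32 members below 0 (50.8% of probe sets). Both sample numbers gave a higher Il10 difference in C3H/HeJBir for 10 members (23.1% of probe sets) and a lower one for 15 (22.9%). The member with the unadjusted p under 0.05 was Abcb10, at -1.37 ± 0.56, and its pairs were far apart, at -2.55 in sample 1 and -0.20 in sample 2. Cyp2c38 had -0.97 ± 0.64, Ces1g -0.77 ± 0.46 and Aldh18a1 -0.77 ± 0.69. On the other side were Cyp2a12 with 0.58 ± 0.54, Abcb4, the phosphatidylcholine transporter, with 0.54 ± 0.66, Sult4a1 with 0.54 ± 0.45 and Gsta4 with 0.44 ± 0.59. Their limma adjusted p was 1.00 in each case. The signs of Abcb4 and Gsta4 each turned without 1 pool.

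Values also differed by sample number, for the members about as often as for all tested probe sets. Ugt2b5, a glucuronosyltransferase of steroids and xenobiotics, read 182 to 229 in sample 1 and 362 to 486 in sample 2, over 4 pools each. These ranges over the 4 groups did not overlap, and the difference, sample 2 minus sample 1, was 0.94 ± 0.13 (limma adjusted p = 0.0715). Limma called 0 of 56 members by sample number and 11 of 7453 probe sets (0.148%). At an unadjusted p under 0.05 limma gave 12 of 56 members, against 20.8% of probe sets. The pools did not overlap for 5 members higher in sample 2 (8.93%, against 5.86% of probe sets) and 3 lower (5.36%, against 8.95%). Of the higher ones, Cyp2d10, a Cyp2d enzyme, read 386 to 414 in sample 1 and 525 to 769 in sample 2. Abcg2, the breast cancer resistance protein that pumps compounds into the gut lumen, read 277 to 355 and 408 to 498 (limma adjusted p = 0.138). The others were Sult1b1, with 0.39, and Gstt2, with 0.19.

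Cyp2e1, the ethanol-oxidising cytochrome P450, went the other way, with 98.6 to 227 in sample 1 and 49.5 to 81.6 in sample 2 (-1.17 ± 0.25, limma adjusted p = 0.120). Gstm1 (-0.29) and Sult4a1 (-0.42) were also lower in every sample 2 pool than in any sample 1 pool. Cyp2e1, Abcg2, Sult1b1 and Gstt2 were named after their values were seen. The 8 absorptive colonocyte markers had median deviations of -0.19 to -0.09 in sample 1 and -0.01 to 0.175 in sample 2. Those of the exocrine pancreas markers were 0.19 to 1.74 and -0.88 to 0.20. Sample number and Xist move together here, as does the day, except that sample 1 spans 2 days, and their parts in the members' values cannot be told apart. The part of the marker lists was not tested.

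**Figure D5:**
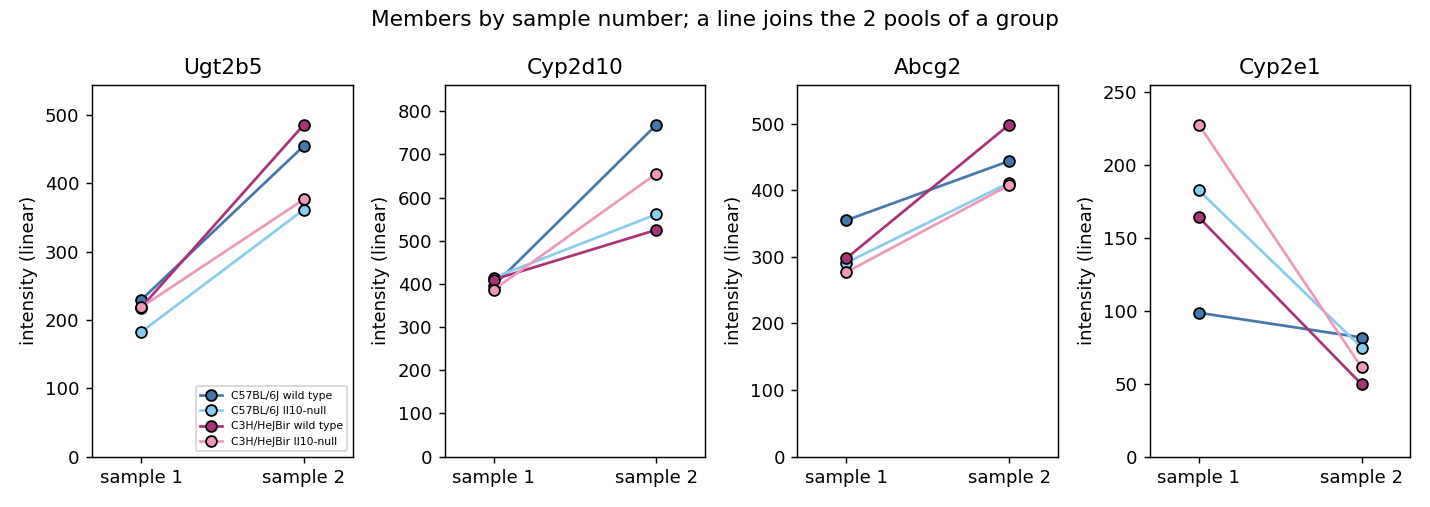
Deposited intensity on a linear axis from 0 for 4 members, sample 1 pools at left and sample 2 pools at right, with a line joining the 2 pools of a group. Ugt2b5, Cyp2d10 and Abcg2 are higher in each sample 2 pool than in any sample 1 pool, and Cyp2e1 is lower.

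The other genes of the pathway were read from lists of receptors and regulators, other oxidation and reduction enzymes, conjugation and co-substrate genes, and uptake carriers. Of 100 symbols, 73 were on the array and 63 were tested, and limma called 0 of 63 in each of the 7 comparisons. At an unadjusted p under 0.05 there were 7 of 63 for the average strain difference (11.1%, against 8.43% of all tested probe sets). For the strain difference there were 5 in wild type (7.94%, against 5.68%) and 5 in Il10-null pools (7.94%, against 5.17%). The average Il10 difference had 1 (1.59%, against 3.09%), and the other 3 comparisons had 0 (against 1.5% to 2.83%). Among the sensing genes Ahr read 24.1 to 55.6 and Nr1i2 18.3 to 122, both with overlapping strains. Of the other enzymes, the 2 with the largest average strain difference were Xdh, xanthine dehydrogenase, and Tpmt, which methylates thiopurine drugs. Xdh read 87.6 to 163 in the C57BL/6J pools and 19.4 to 112 in the C3H/HeJBir pools, where the sample 1 Il10-null pool reached into the C57BL/6J range (-1.53, limma adjusted p = 0.207). Tpmt read 108 to 169 in C57BL/6J and 204 to 389.8 in C3H/HeJBir without overlap (1.03, limma adjusted p = 0.102).

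How far a gene's value is its own depends on the probe set. Of the 56 tested members, 13 were read by a probe set of a kind that recognises several transcripts or a gene family, among them Cyp2c38, Cyp4b1, Gstm1, Gstm5, Ugt2b5 and Ces1d. For 10 tested genes a further probe set was also tested. For Gstm1 the further probe set gave an average strain difference of -0.50 where the main one gave 0.05. For Gstm2 it gave an average Il10 difference of 0.18 where the main one gave -0.24, and for Aldh7a1 an Il10 difference in C3H/HeJBir of 0.67 where the main one gave -0.09. Cyp3a13, Abcc3, Gsta4 and Abcb1a were each read by 1 probe set. A further 8 probe sets carried several symbols of which at least 1 belongs to these families, and they were not used.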

How the data were processed

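Intensity values, 1 per probe set and array on a linear scale, were used as the authors deposited them, already at a common level: trimmed by 2%, the highest array mean was 1.009 times the lowest. How probes were summarised and scaled was not given in the sources used here. Per the deposited experiment files, hybridisation took place on 3 days. Gene symbols came from the platform annotation, and all 96 member genes matched RefSeq by gene number.

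Values were analysed as log2(intensity + 11.07), the 20th percentile of all values. The 7453 probe sets with a mean of at least 37.0, the 40th percentile, entered a fit of 4 group means without a block by lmFit and eBayes (limma 3.58.1, R 4.3.3). Tests were two-sided with Benjamini-Hochberg adjustment over these probe sets. Sample number was tested in a fit that added it to the group means. The fit was also run on simulated data, as a check of the code. That simulation had independent noise per array and no shift by sample number or day, unlike the real arrays. Deviations from group means were correlated between pools of the same sample number, at 0.198 to 0.332 over 6 pairs of groups. Pools of the same sample number thus shared a shift, and day and Xist differ along with sample number. The main fit had no block, so this shift stayed in its residual. The sample number as a block served as an alternative.

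The members and gene lists were chosen with earlier results of these data known. Named were members that passed, per comparison the 4 with the largest difference in each direction among those without overlap, the 2 with the highest mean per family, 3 members like the called one, and 2 partner genes. Alternatives were other pseudocounts, filters, scalings and moderation, a threshold of 0.1, averaged probe sets, blocks, the compared groups alone and leaving out each pool. Values within each day were added after seeing the data.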

Additional observations from a re-analysis of the deposited data

How the results depend on the processing

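The count of called members stayed at 0 for both Il10 effects, their difference, their average and the strain effect in wild type under every alternative run. With all pools it was 0 for the strain effect in Il10-null and 1 for the average strain effect. Fits without 1 pool leave a single pool in a group, so for these 2 effects only differences are given. Without the sample 2 C3H/HeJBir Il10-null pool the average strain difference was -1.99 for Cyp3a13 and -1.06 for Abcb1a. The share of all probe sets called is not given for the alternatives in this paragraph. The average strain count was 0 with the pseudocount at the 5th percentile, without a filter and after median scaling. By sample number it was 1, Ugt2b5, with the pseudocount at the 50th percentile, the filter at the 60th percentile, median scaling, and trend and robust moderation, and 2 at a threshold of 0.1. The replicate block changed no call (Cyp3a13 limma adjusted p = 0.0177). The median Il10 average of the members was -0.07 with the pseudocount at the 50th percentile and also without a filter, and -0.16 to -0.05 without 1 pool. Without 1 pool the medians for strain ran from -0.13 to 0.04 in wild type, -0.20 to 0.06 in Il10-null and -0.14 to 0.02 on average. Signs turned for Cyp2c38 in C57BL/6J (0.0661) and Sult2b1 in C3H/HeJBir (-0.0912) with the day block, and in the difference of Il10 effects for Abcb4 without the sample 2 C3H/HeJBir wild-type pool and Gsta4 without the sample 1 C3H/HeJBir Il10-null pool. Without 1 pool Abcb4 ran from -0.18 to 1.27 and Gsta4 from -0.17 to 1.04. The cause was not tested in any of these cases. Of 873 other values for named members, 856 were scored as unchanged. For refits this meant the same direction and side of the threshold, and for further probe sets the same direction only. For sample 2 pools alone and single days it meant lying near the main value, judged by the spread between the 2 sample numbers. In comparisons of single groups that last rule could not fail, since the main value is the mean of both sample numbers.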
